A study of Mus musculus with 6 samples.

Results

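p53 and its direct target genes were followed from mouse bone marrow stromal cells to the cells regrown from infarcted brain after such cells were injected. The members were taken from a list of 32 symbols, p53 (Trp53) and genes known to be switched on by it, and not picked by their values. The list was chosen with earlier results of these data known, so the share of members called is a description. Of these, 30 had at least 1 probe set annotated to their symbol alone, 54 probe sets in all, among 18193 genes so measured. Where a gene had several, the one brightest on average over the 6 arrays stood for it. Trp53 itself and Gdf15, a secreted stress cytokine, had no such probe set and are not analysed here.

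Both groups carry the SV40 large T antigen in its temperature-sensitive form tsA58, driven by the H-2Kb promoter of a class I histocompatibility gene, in CBA/Ca × C57BL/10 hybrid Immortomouse cells. Naïve Large T BMSC are adherent marrow cells of these mice, grown at the permissive temperature and passaged 3 times. iLarge T BMSC were injected into a vein of young adult male C57BL/6 mice after transient occlusion of the middle cerebral artery, recovered from the infarcted hemisphere after collagenase digestion, grown again at the permissive temperature and passaged 3 times. Each group has 3 arrays, and each array was hybridised with RNA pooled from 3 hemispheres or from 3 sets of naïve cells. Arrays of naïve cells are numbered 1, 3 and 5, and 2, 4 and 6 are those of iLarge T BMSC. The age of the marrow donors is not given in the sources used here. Only cells able to grow again in culture were measured, and the recovery step has no counterpart in the naïve cells, so that injection, brain residence, digestion and regrowth cannot be told apart. Fewer cells of a type and less RNA per cell also cannot be told apart in such arrays.

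p53 is a transcription factor that damaged or stressed cells stabilise. It binds pairs of a short DNA half-site near its targets and switches on genes that halt division, repair DNA, remodel metabolism or kill the cell. Among these targets is Mdm2, a ubiquitin ligase that returns p53 to degradation, so the pathway holds itself in check. SV40 large T antigen binds p53 and the retinoblastoma protein family, which is the ground for looking at this set in cells that carry the antigen.

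Expression was read as MAS5 signal, which is linear in probe brightness, and array medians lay between 308 and 450.1. Calls needed an adjusted p (Benjamini-Hochberg) under 0.05 in limma, whose linear model borrows the spread of a gene partly from the other genes, together with a change of 2-fold or more. The standard error of a log2 fold change is written SE. Naïve replicate 1 stood apart from its group. Across probe sets its log2 signals correlated at 0.829 and 0.831 with naïve replicates 3 and 5, which correlated at 0.892 with each other. The stromal markers were present: none of 10 measured genes, among them Col1a1, Col3a1 and Cd44, lay near background (under the 40th percentile of its array) on any array. Their levels differed: Cd44 and Pdgfrb were called higher and Vcam1 lower (20% and 10%, against 3.54% and 3.26% of all genes). Log2 fold changes of these 3 were 2.04, 3.74 and -2.81 (adjusted p = 0.0305, 0.000420 and 0.00130). Nt5e was lower on all iLarge T arrays than on any naïve one, without being called (-1.27, adjusted p = 0.108). The 8 measured marker genes of macrophages and microglia reached a summed signal of 50745 on iLarge T replicate 6, but of 5855 and 4667 on iLarge T replicates 2 and 4, and of 2616 to 10926 on the naïve arrays. Near background were 4 to 5 of them on the naïve arrays and 2, 3 and 1 on iLarge T replicates 2, 4 and 6. Most of the sum on naïve replicates 3 and 5 was Cd68, at 9873 and 8396. Cd68 had a signal of 544 on naïve replicate 1 and of 317, 1329 and 16962 on iLarge T replicates 2, 4 and 6. Of the 8, 7 had positive log2 fold changes and Cd68 a negative one, at -0.88 (adjusted p = 0.822). Only Csf1r, the macrophage growth factor receptor, was called higher (12.5%, against 3.54% of all genes). Csf1r was higher on every iLarge T array, at 3716, 1892 and 5673 against 330.2 to 883 in naïve cells (adjusted p = 0.0151, and 0.0806 without iLarge T replicate 6). The 6 measured endothelial markers summed to 49454 on iLarge T replicate 6 and to 6640.1 to 9906 on the other arrays, but most of the naïve sum was Tek, at 5703 to 9080.2, which fell in iLarge T BMSC (adjusted p = 0.00243). Endothelial markers near background numbered 4 on each naïve array and 1, 0 and 0 on iLarge T replicates 2, 4 and 6. Cdh5, the cadherin of endothelial junctions, had signals of 27.5 to 209.9 on the naïve arrays against 2211, 2787 and 23797, and Emcn, which encodes endomucin, 17.4 to 122 against 2857, 2917 and 15858. Both were called higher with all arrays (adjusted p = 0.00760 and 0.00477) and without iLarge T replicate 6 (adjusted p = 0.0433 and 0.0350). Positive log2 fold changes were seen for 3 of 5 astrocyte, 2 of 4 oligodendrocyte and 4 of 5 neuron markers. Of these lists only Tubb3, a neuronal tubulin, was called, at 90.9 to 892 in naïve cells against 4230, 1328 and 5150 (adjusted p = 0.0490, and 0.189 without iLarge T replicate 6). Gfap of astrocytes reached 3104 on iLarge T replicate 6, against at most 283 in naïve cells, without being called (adjusted p = 0.341). The brighter astrocyte markers Aldoc and Gja1 had negative log2 fold changes of -2.43 and -0.95, also not called (adjusted p = 0.148 and 0.173). The 5 astrocyte markers, mostly through Gja1, summed to 53651 to 97008 on the naïve arrays. On the iLarge T arrays they summed to 28095 to 40951, lowest on replicate 6. Csf1r, Cdh5, Emcn and Tubb3 were therefore higher on every iLarge T array, and their part in the results was not tested. Results are also given with naïve replicate 1 or iLarge T replicate 6 left out.

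Of the 30 measured genes, 6 rose in iLarge T BMSC (20%, against 3.54% of all genes), none fell (against 3.26%) and 24 did not pass the test. In either direction 6.8% of all genes were called. Those that rose were Pmaip1, Ak1, Zmat3, Phlda3, Rprm and Aen. They encode an inducer of cell death, an adenylate kinase, an RNA-binding protein, an inhibitor of AKT, a mediator of arrest and a nuclease. At an unadjusted p under 0.05 by limma, 12 were higher and 2 lower (against 11.6% and 10.5% of all genes), and the methods' t-test called none in either direction. Separate ranges of signals in the 2 groups were seen for 8 genes higher and 2 lower, against 14.5% and 13.1% of all genes. The median log2 fold change (iLarge T minus naïve) of the measured members was 0.79, in a range of -1.53 to 3.75, and that of all genes was 0.06. Of the 30 genes, 29 lay above background on all 6 arrays, and the exception was Rprm. Of all 18193 genes, 9858 did so. The shares of all genes given here and below therefore include many dim genes, and shares among bright genes alone were not computed.

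**Figure D1:**
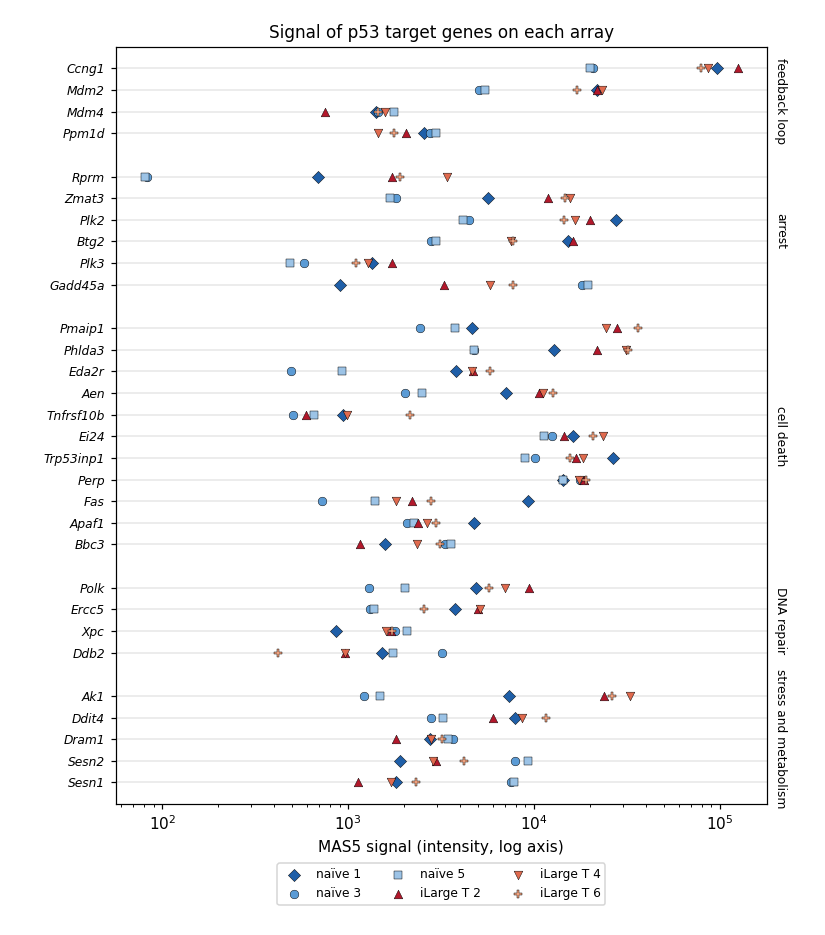
MAS5 signal (log axis) of 30 p53 target genes, grouped by role, with 1 point for each of the 3 naïve (blue) and 3 iLarge T arrays (red). For Ccng1, Mdm2, Plk2, Btg2 and Ercc5 naïve replicate 1 (dark diamond) lies at or above the lowest iLarge T array, while naïve replicates 3 and 5 lie below them.

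The p53 half-site was found in the promoters of some members, and these are shown because genes with and without one were among those that rose. Promoters (250 bases before to 50 after the gene start, RefSeq, GRCm38.p6) were given for 23 of the 30 measured genes and searched for the p53 half-site consensus, which reads the same on both strands. It was present in 8 of these genes, or in 9 of their 32 promoters (28.1%), against 8.36% of 32851 promoters in the table. The Aen site lies in overlapping promoters of its alternative starts and was counted in each. The sites printed start 10 to 231 bases before the gene start, except that the Aen site lies just after the earlier of its 2 starts. The members were listed as p53 targets, so this share is a description. Capitals mark the half-site, each within a window of 30 bases.
Mdm2, chr10:117710925-117710954, strand -: agtcggatagGAACTTGCCTagcgaccatt
Ccng1, chr11:40755452-40755481, strand -: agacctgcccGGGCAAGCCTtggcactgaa
Ppm1d, chr11:85311112-85311141, strand +: gggcgggggcGAGCTTGCTCttcttgactc
Gadd45a, chr6:67037428-67037457, strand -: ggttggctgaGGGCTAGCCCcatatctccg
Aen, chr7:78895927-78895956, strand +: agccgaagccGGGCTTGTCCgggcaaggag
Ei24, chr9:36797325-36797354, strand -: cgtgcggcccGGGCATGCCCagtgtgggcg
Polk, chr13:96519399-96519428, strand -: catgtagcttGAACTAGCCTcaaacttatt
Sesn1, chr10:41887256-41887285, strand +: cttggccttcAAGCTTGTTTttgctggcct

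Of these genes Aen was called higher with all arrays. Mdm2, Ccng1 and Polk were not, but were called higher, and Gadd45a and Sesn1 lower, when naïve replicate 1 was left out. Ccng1 and Polk were also called with all arrays once low signals were raised to the background level (adjusted p = 0.0373 and 0.0169). Ppm1d and Ei24 were not called with or without it. The other genes called higher in iLarge T BMSC and given a promoter, Ak1, Phlda3 and Rprm, held no match to these letters in this window, and none was given for Zmat3 or Pmaip1. A pair of half-sites at most 13 bases apart, the arrangement that p53 binds as a tetramer, was in no promoter of the measured members and in 24 of 32851 in the table. Among these was that of Cdkn1a, which encodes the CDK inhibitor p21 and is described with the other targets. The search counted exact matches only. A stretch directly after the second Cdkn1a site departs from the consensus at its first base and was not counted, and which pair p53 binds was not tested. The whole promoters of Mdm2, Aen and Cdkn1a are given as examples of a single site in the feedback gene, a single site in a gene that rose, and a pair of exact matches with 12 bases between them.
Mdm2, chr10:117710709-117711008, strand -: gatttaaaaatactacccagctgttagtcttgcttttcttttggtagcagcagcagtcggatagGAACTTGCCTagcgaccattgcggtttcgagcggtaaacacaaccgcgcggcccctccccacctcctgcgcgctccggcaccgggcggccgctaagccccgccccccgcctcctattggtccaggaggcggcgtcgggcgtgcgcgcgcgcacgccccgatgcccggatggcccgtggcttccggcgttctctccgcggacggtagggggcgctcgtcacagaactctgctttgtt
Aen, chr7:78895808-78896107, strand +: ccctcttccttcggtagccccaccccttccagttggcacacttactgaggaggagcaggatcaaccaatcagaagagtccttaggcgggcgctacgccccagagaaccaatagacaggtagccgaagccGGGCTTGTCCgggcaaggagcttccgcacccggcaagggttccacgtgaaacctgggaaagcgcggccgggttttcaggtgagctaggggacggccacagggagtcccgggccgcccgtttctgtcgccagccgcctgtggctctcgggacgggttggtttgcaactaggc
Cdkn1a, chr17:29090729-29091028, strand +: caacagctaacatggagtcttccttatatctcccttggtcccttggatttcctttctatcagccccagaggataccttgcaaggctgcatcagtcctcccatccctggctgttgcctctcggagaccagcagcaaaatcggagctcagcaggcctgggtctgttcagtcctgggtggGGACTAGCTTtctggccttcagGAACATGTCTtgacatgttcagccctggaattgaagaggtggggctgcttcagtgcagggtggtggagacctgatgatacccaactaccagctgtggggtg

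In the feedback loop none of 4 measured genes was called (against 6.8% of all genes). Differences between the roles were not tested. Mdm2, the ubiquitin ligase that degrades p53, had signals of 21933, 5080.4 and 5424 (naïve 1, 3 and 5) against 21787, 23250.2 and 17141 (iLarge T 2, 4 and 6). Naïve replicate 1 matched the iLarge T arrays, and naïve replicates 3 and 5 lay below all of them. The log2 fold change was 1.28 (95% confidence interval 0.17 to 2.39, adjusted p = 0.206). Ccng1, which encodes cyclin G1, a cofactor of MDM2 regulation, had signals of 96921, 20824 and 20051 (naïve 1, 3 and 5) against 124678, 85943 and 79193 (iLarge T 2, 4 and 6). Here too only naïve replicates 3 and 5 lay below the iLarge T arrays, and the log2 fold change was 1.46 (95% confidence interval 0.26 to 2.67, adjusted p = 0.182). Mdm4, a relative of MDM2 that blocks the activity of p53, had signals of 1408, 1439.9 and 1771 in naïve and 751, 1583 and 1455 in iLarge T BMSC in the same order of arrays. Its groups overlapped, with a log2 fold change of -0.35 (95% confidence interval -1.24 to 0.54, adjusted p = 0.734). Ppm1d, a phosphatase that reverses the phosphorylation of p53 and its kinases, had signals of 2566, 2749 and 2955 in naïve and 2041, 1451 and 1763 in iLarge T BMSC. All iLarge T signals lay below all naïve ones, without passing the test, with a log2 fold change of -0.67 (95% confidence interval -1.33 to 0.00, adjusted p = 0.286).

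Among genes of arrest and growth restraint, 2 of 6 rose and none fell (33.3% and 0%, against 3.54% and 3.26% of all genes). Zmat3, an RNA-binding zinc finger protein that controls the splicing and stability of transcripts, had signals of 5669, 1803 and 1676 (naïve 1, 3 and 5) against 11884, 15619 and 14715 (iLarge T 2, 4 and 6). The groups did not overlap, naïve replicate 1 lay between the other naïve arrays and the iLarge T arrays, and the log2 fold change was 2.44 (SE 0.44, adjusted p = 0.0125), or 5.42-fold. Rprm, which encodes Reprimo, a mediator of arrest before mitosis, had signals of 690.1, 82.8 and 80.9 (naïve 1, 3 and 5) against 1728, 3416 and 1907 (iLarge T 2, 4 and 6). Naïve replicates 3 and 5 were near background, and naïve replicate 1 was not. The log2 fold change of Rprm was 3.75 (SE 0.82, adjusted p = 0.0311), and 2.93 (adjusted p = 0.00183) with low signals raised to the background level.

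The remaining genes of arrest split naïve replicate 1 from naïve replicates 3 and 5. Plk2, a polo-like kinase of stressed cells, had signals of 27509.8, 4483 and 4151 (naïve 1, 3 and 5) against 19916, 16597 and 14526 (iLarge T 2, 4 and 6). Naïve replicate 1 was the highest array of all, and the log2 fold change was 1.08 (95% confidence interval -0.30 to 2.45, adjusted p = 0.422). Btg2, an antiproliferative cofactor of mRNA decay, had signals of 15268, 2796 and 2973 in naïve and 16171, 7559 and 7702 in iLarge T BMSC and a log2 fold change of 0.96 (95% confidence interval -0.39 to 2.32, adjusted p = 0.476). Plk3, a related polo-like kinase, had signals of 1344, 580.0 and 484 in naïve and 1728, 1282 and 1109 in iLarge T BMSC and a log2 fold change of 0.90 (95% confidence interval -0.18 to 1.99, adjusted p = 0.388). For both, naïve replicate 1 lay among the iLarge T arrays at these probe sets. At the other probe set of Btg2 it had a signal of 3680, below all iLarge T arrays (4648, 5093 and 8336). The groups did not overlap there, and the log2 fold change of 1.23 (adjusted p = 0.102) was not called. Gadd45a, a stress protein that binds PCNA and restrains CDK1, had signals of 908, 18149 and 19433 (naïve 1, 3 and 5) against 3279.6, 5809.5 and 7701 (iLarge T 2, 4 and 6). Here naïve replicate 1 was the lowest array, naïve replicates 3 and 5 were the highest, and the log2 fold change of -0.38 (95% confidence interval -2.58 to 1.83, adjusted p = 0.902) was not called.

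Among genes of cell death, 3 of 11 rose and none fell (27.3% and 0%, against 3.54% and 3.26% of all genes). Pmaip1, which encodes NOXA, a BH3-only protein that neutralises MCL1, had signals of 4619.8, 2426 and 3743 (naïve 1, 3 and 5) against 27874, 24509.9 and 36200.2 (iLarge T 2, 4 and 6). The naïve arrays lay together and all iLarge T arrays were above them, with means of 3596 ± 1104 and 29528 ± 6018 (SD, n = 3). The log2 fold change of Pmaip1 was 3.07 (SE 0.30, adjusted p = 0.000852), or 8.39-fold. Phlda3, a pleckstrin homology protein that keeps AKT from the membrane, had signals of 12799, 4786 and 4744 (naïve 1, 3 and 5) against 21759.8, 31389.9 and 31915 (iLarge T 2, 4 and 6). No iLarge T signal fell within the naïve range, with naïve replicate 1 nearest to the iLarge T arrays, and the log2 fold change was 2.08 (SE 0.39, adjusted p = 0.0151). Aen, a nuclease that takes part in cell death after p53 activation, had signals of 7104, 2019 and 2497 (naïve 1, 3 and 5) against 10636, 11239 and 12683 (iLarge T 2, 4 and 6). The groups did not overlap, and the log2 fold change was 1.80 (SE 0.43, adjusted p = 0.0429).

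Eda2r, a receptor of the tumour necrosis factor family, had signals of 3796, 492 and 928 (naïve 1, 3 and 5) against 4721, 4649 and 5802 (iLarge T 2, 4 and 6). Every iLarge T array lay above every naïve one, but the naïve arrays spanned a wide range and the log2 fold change of 2.07 (95% confidence interval 0.67 to 3.46, adjusted p = 0.102) was not called. Fas, a death receptor, had signals of 9275, 725 and 1391 (naïve 1, 3 and 5) against 2210.1, 1816 and 2797 (iLarge T 2, 4 and 6). Naïve replicate 1 was above every other array, and the log2 fold change was 0.09 (95% confidence interval -1.63 to 1.80, adjusted p = 0.975). Trp53inp1, a stress protein of autophagy and cell death, and Apaf1, the scaffold of the apoptosome, were likewise brightest on naïve replicate 1, at 26687 and 4769. Their log2 fold changes were 0.33 (95% confidence interval -0.53 to 1.19, adjusted p = 0.740) and -0.08 (95% confidence interval -0.90 to 0.74, adjusted p = 0.947). Bbc3, which encodes PUMA, the other BH3-only target, had signals of 1574, 3309 and 3571 in naïve and 1156, 2354 and 3136 in iLarge T BMSC and a log2 fold change of -0.37 (95% confidence interval -1.40 to 0.65, adjusted p = 0.755). Its groups overlapped, so the BH3-only genes differed in outcome, with Pmaip1 called and Bbc3 not, though the difference between them was not tested.

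The other genes of cell death did not pass the test. Perp, a membrane protein of desmosomes, was bright on every array and had a log2 fold change of 0.26 (95% confidence interval -0.23 to 0.75, adjusted p = 0.625). Ei24, a protein of the endoplasmic reticulum, had a log2 fold change of 0.55 (95% confidence interval -0.05 to 1.15, adjusted p = 0.334). Tnfrsf10b, a receptor of the death ligand TRAIL, had one of 0.67 (95% confidence interval -0.56 to 1.90, adjusted p = 0.611), and its highest signal was 2155, on iLarge T replicate 6.

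**Figure D2:**
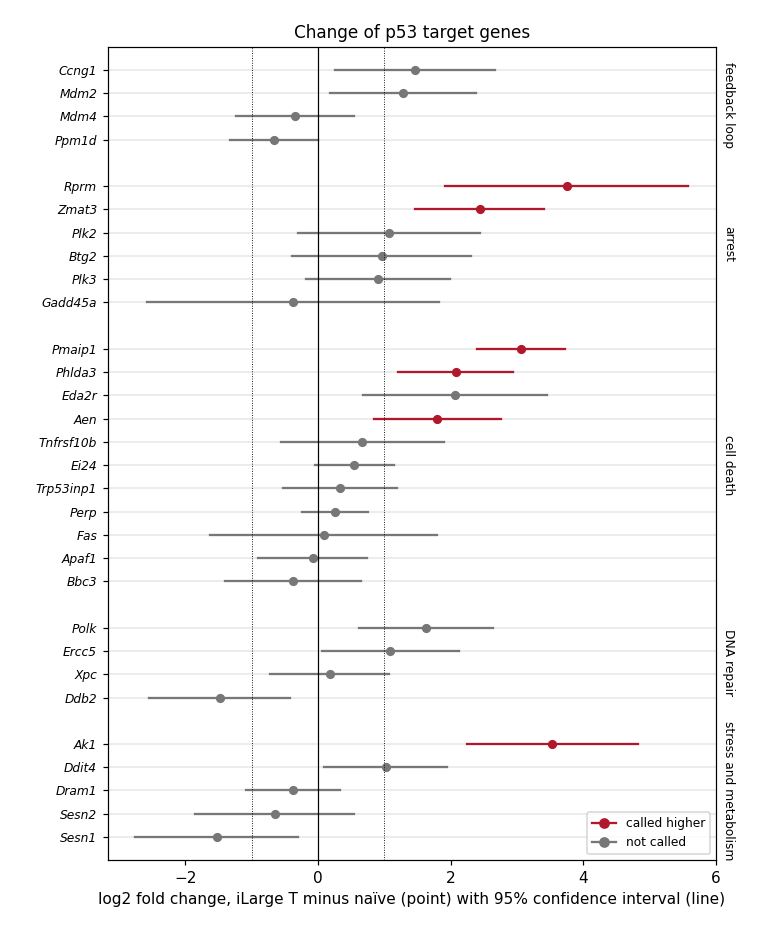
Log2 fold change (iLarge T minus naïve) of 30 p53 target genes from limma, with its 95% confidence interval, grouped by role. The 6 genes called higher (red) have changes of 1.80 to 3.75, and dotted lines mark a change of 2-fold.

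None of the 4 repair genes was called (against 6.8% of all genes). Polk, a polymerase that copies past damaged bases, had signals of 4880.2, 1299 and 2019 (naïve 1, 3 and 5) against 9416, 6963 and 5743 (iLarge T 2, 4 and 6). The groups did not overlap, and the log2 fold change was 1.63 (95% confidence interval 0.61 to 2.64, adjusted p = 0.0778). Ercc5, the endonuclease XPG of nucleotide excision repair, had signals of 3756, 1317 and 1372 in naïve and 4981, 5111 and 2567 in iLarge T BMSC, with naïve replicate 1 above the lowest iLarge T array. Its log2 fold change was 1.09 (95% confidence interval 0.06 to 2.12, adjusted p = 0.255). Ddb2, which recognises ultraviolet damage in chromatin, had signals of 1521, 3203 and 1739 (naïve 1, 3 and 5) against 958, 963 and 420.2 (iLarge T 2, 4 and 6). It was lower on all iLarge T arrays than on any naïve one, with a log2 fold change of -1.48 (95% confidence interval -2.54 to -0.42, adjusted p = 0.123). Xpc, its partner in damage recognition, had a log2 fold change of 0.18 (95% confidence interval -0.72 to 1.07, adjusted p = 0.886), with a signal of 863 on naïve replicate 1 and of 1592 to 2086 on the others.

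Of 5 genes of stress, metabolism and autophagy, 1 rose (20%, against 3.54% of all genes). Ak1, an adenylate kinase that balances adenine nucleotides, had signals of 7382, 1216 and 1483 (naïve 1, 3 and 5) against 23928, 32809 and 26326 (iLarge T 2, 4 and 6). No naïve array reached the iLarge T range, and its mean signal was 3360.0 ± 3486 in naïve and 27688 ± 4594 in iLarge T BMSC (SD, n = 3). The log2 fold change was 3.53 (SE 0.58, adjusted p = 0.00843), or 11.6-fold. Ddit4, which encodes REDD1, an inhibitor of mTORC1, had signals of 7913, 2799.8 and 3235 (naïve 1, 3 and 5) against 6025, 8625 and 11565 (iLarge T 2, 4 and 6). Naïve replicate 1 lay among the iLarge T arrays, and the log2 fold change was 1.02 (95% confidence interval 0.09 to 1.95, adjusted p = 0.231).

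The sestrins, which restrain mTORC1 when amino acids are short, had negative log2 fold changes. Sesn1 had signals of 1817, 7548 and 7773 (naïve 1, 3 and 5) against 1136, 1703 and 2310.5 (iLarge T 2, 4 and 6). Naïve replicates 3 and 5 were the highest, naïve replicate 1 lay among the iLarge T arrays, and the log2 fold change was -1.53 (95% confidence interval -2.75 to -0.30, adjusted p = 0.172). Sesn2 had signals of 1898, 7894 and 9324 in naïve and 2961, 2869 and 4219 in iLarge T BMSC, with naïve replicate 1 the lowest array and naïve replicates 3 and 5 the highest, and a log2 fold change of -0.65 (95% confidence interval -1.86 to 0.55, adjusted p = 0.612). Dram1, a lysosomal protein of autophagy, had a log2 fold change of -0.37 (95% confidence interval -1.08 to 0.34, adjusted p = 0.627).

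The position of naïve replicate 1 recurred across the members. It was above both other naïve arrays for 20 of 30 genes (66.7%, against 43.6% of all genes), and at least 2-fold above both for 17 (56.7%, against 15.5%). Naïve replicates 3 and 5 lay below all iLarge T arrays for 19 members (63.3%, against 24.5% of all genes). For 11 of these naïve replicate 1 did not (36.7% of members, against 9.94% of all genes). Among all genes these counts were 4454 and 1809. Naïve replicates 3 and 5 lay above all iLarge T arrays for 8 members (26.7%, against 23.3%). With each gene centred on its mean over the 6 arrays, the median log2 signal of the members was 0.19 on naïve replicate 1, -0.92 and -0.81 on the other naïve arrays. It was 0.16, 0.33 and 0.36 for iLarge T replicates 2, 4 and 6, close to naïve replicate 1. The labels give no batch or culture detail that sets naïve replicate 1 apart, and its part in the result was measured by leaving it out.

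Without naïve replicate 1, 14 members were called higher and 3 lower, against 7.13% and 6.67% of all genes. These included all 6 genes called with every array, and 8 others: Mdm2, Ccng1, Btg2, Plk2, Eda2r, Polk, Ercc5 and Ddit4. The log2 fold change became 1.97 (SE 0.23, adjusted p = 0.000571) for Mdm2 and 2.21 (SE 0.25, adjusted p = 0.000538) for Ccng1. It became 2.90 (SE 0.34, adjusted p = 0.000659) for Eda2r and 1.97 (SE 0.23, adjusted p = 0.000608) for Plk2. Gadd45a, Sesn1 and Sesn2 were called lower, with -1.83 (SE 0.33, adjusted p = 0.00676) for Gadd45a, -2.22 (SE 0.33, adjusted p = 0.00236) for Sesn1 and -1.38 (SE 0.27, adjusted p = 0.00893) for Sesn2. The median log2 fold change of the members was then 1.25, and that of all genes 0.07. The count rests on a naïve group of 2 arrays, left after the one that stood apart was removed.

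**Figure D3:**
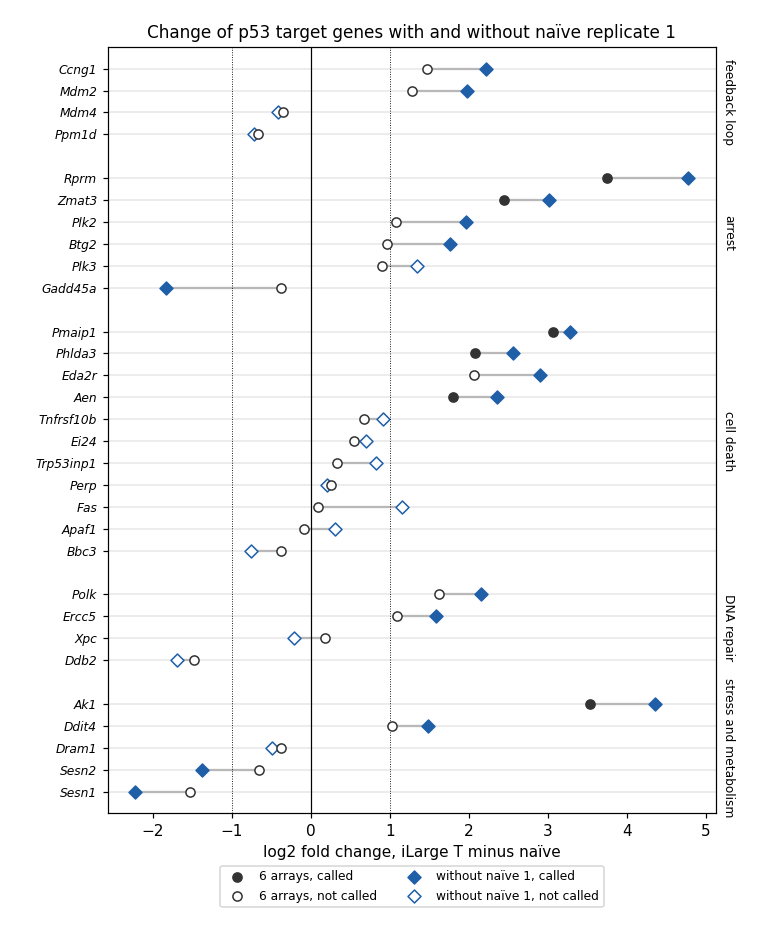
Log2 fold change (iLarge T minus naïve) of 30 p53 target genes with all 6 arrays (circles) and without naïve replicate 1 (diamonds), filled where called. Filled points number 6 with all arrays, and 14 higher and 3 lower without naïve replicate 1.

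Without iLarge T replicate 6, the array with the highest macrophage and endothelial sums though not the sole one with these markers, 2 members were called higher, Pmaip1 and Ak1, and none lower, against 1.59% and 1.9% of all genes. The log2 fold changes of the 6 genes were then 1.73 to 3.87, against 1.80 to 3.75 with it, so their sizes moved little while 4 calls were lost. Leaving out naïve replicate 3 gave 2 members higher (against 1.75% of all genes) and naïve replicate 5 gave 3 (against 1.99%). Leaving out iLarge T replicate 2 gave 4 (against 1.80%) and iLarge T replicate 4 gave 2 (against 1.37%). Pmaip1 and Ak1 were in each of these counts. Zmat3 was called without naïve replicate 5 or iLarge T replicate 2, Phlda3 without iLarge T replicate 2, and Rprm and Aen in none of them. When both naïve replicate 1 and iLarge T replicate 6 were left out, a choice made after seeing the data, 14 members were called higher and 3 lower, against 6.66% and 7.26% of all genes.

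Further targets of p53 were called in both directions. Of 20 measured, 3 were called higher, 1 lower and 16 neither (against 3.54% and 3.26% of all genes), with a median log2 fold change of 0.52. Without naïve replicate 1 the counts were 6 and 2 (against 7.13% and 6.67% of all genes). Without iLarge T replicate 6 they were 1 and 2 (against 1.59% and 1.9%). Without any other single array 1 was called higher (against 1.37% to 1.99%) and at most 1 lower (against 1.28% to 1.95%). Cdkn1a, which encodes p21, the CDK inhibitor through which p53 halts the cell cycle, had signals of 24622, 5220.0 and 4614 (naïve 1, 3 and 5) against 53342, 46041 and 61865 (iLarge T 2, 4 and 6). The groups did not overlap, naïve replicate 1 was above the other naïve arrays, and the log2 fold change was 2.67 (SE 0.54, adjusted p = 0.0228). It was 3.44 (SE 0.22, adjusted p = 2.68e-05) without naïve replicate 1, and the call was lost without any other single array (adjusted p = 0.0747 to 0.0991). The other probe set of Cdkn1a had signals of 7583, 33.3 and 51.8 (naïve 1, 3 and 5) against 7419.7, 4274 and 12808 (iLarge T 2, 4 and 6), where naïve replicates 3 and 5 were near background, and was not called (adjusted p = 0.140). Dusp1, a phosphatase of MAP kinases, rose by 3.32 (SE 0.48, adjusted p = 0.00466) on the log2 scale, and Ephx1, an epoxide hydrolase, by 1.75 (SE 0.41, adjusted p = 0.0414). The call of Ephx1 was lost without any single array but naïve replicate 1. Cd82, a tetraspanin that limits cell motility, had a log2 fold change of -1.53 (SE 0.27, adjusted p = 0.0112) at its brightest probe set. It was -0.33 (adjusted p = 0.896) at its most variable one and -0.93 (adjusted p = 0.242) on the mean of its probe sets, and the call was lost without naïve replicate 3, naïve replicate 5 or iLarge T replicate 4. Bax, the pore-forming death effector, had no probe set of its own and is not analysed here. The list moved with naïve replicate 1 as the members did: its median centred log2 signal was 0.11 there, and -0.35 and -0.52 on naïve replicates 3 and 5.

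Of 20 regulators and relatives of p53, 1 was called higher, 1 lower and 18 neither (5% each way, near the 3.54% and 3.26% of all genes), with a median log2 fold change of -0.30. Without naïve replicate 1 the counts were 1 and 3 (against 7.13% and 6.67% of all genes). Hipk2, a kinase that phosphorylates p53 before cell death, had signals of 3101, 1743 and 1794 in naïve and 5690.3, 4803 and 7227 in iLarge T BMSC and a log2 fold change of 1.45 (SE 0.32, adjusted p = 0.0334). Its groups did not overlap, and the call was lost without any single array but naïve replicate 1 (adjusted p = 0.0851 to 0.150). The call of Hipk2 was also lost at its most variable probe set, on the mean of its probe sets and after centring each array on its median. Chek1, the checkpoint kinase of stalled replication forks, had signals of 3197, 4207 and 3543 in naïve and 446, 1087 and 532 in iLarge T BMSC and a log2 fold change of -2.51 (SE 0.41, adjusted p = 0.00843). All iLarge T signals lay below all naïve ones, and the call was lost without naïve replicate 3 (adjusted p = 0.0542). It was also lost at the most variable probe set of Chek1 and on the mean of its probe sets (adjusted p = 0.204). Cdkn2a, whose ARF product inhibits MDM2, had signals of 7271, 12029 and 13144 in naïve and 10733, 5862 and 2502 in iLarge T BMSC and overlapped between groups, with a log2 fold change of -0.96 (95% confidence interval -2.03 to 0.12, adjusted p = 0.348). Whether its probe set separates ARF from the CDK inhibitor that the locus also encodes was not tested. The relatives Trp63 and Trp73 were dim, with signals of at most 395, and were not called.

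Genes of cell division that p53 is known to lower through p21 and the DREAM repressor complex were mostly called lower. Of 20 measured, 17 fell, none rose and 3 did not pass the test (85% fell, against 3.26% of all genes), with a median log2 fold change of -2.64. Those called lower numbered 9 without iLarge T replicate 6 (against 1.9% of all genes) and 10 without iLarge T replicate 2 (against 1.95%). Without any other single array they numbered 12 to 17 (against 1.28% to 6.67%). The list was written with the fall of cell division genes on these arrays already known, so the count is a description. Mcm5, a subunit of the replicative helicase, had signals of 41388, 31462 and 32819 (naïve 1, 3 and 5) against 1882, 4442 and 2101 (iLarge T 2, 4 and 6). The groups lay far apart, with a log2 fold change of -3.75 (SE 0.34, adjusted p = 0.000675). Ccnb2, Aurkb and Cenpa, genes of mitosis, had log2 fold changes of -3.52 (SE 0.35, adjusted p = 0.000969), -2.98 (SE 0.41, adjusted p = 0.00405) and -2.85 (SE 0.34, adjusted p = 0.00207). On naïve replicate 1 these division genes were not low: 18 of 20 were above both other naïve arrays, and the median centred log2 signal was 1.87, against 0.94 and 0.96 on naïve replicates 3 and 5. The median of the division genes was -1.89, -0.59 and -1.44 for iLarge T replicates 2, 4 and 6.

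**Figure D4:**
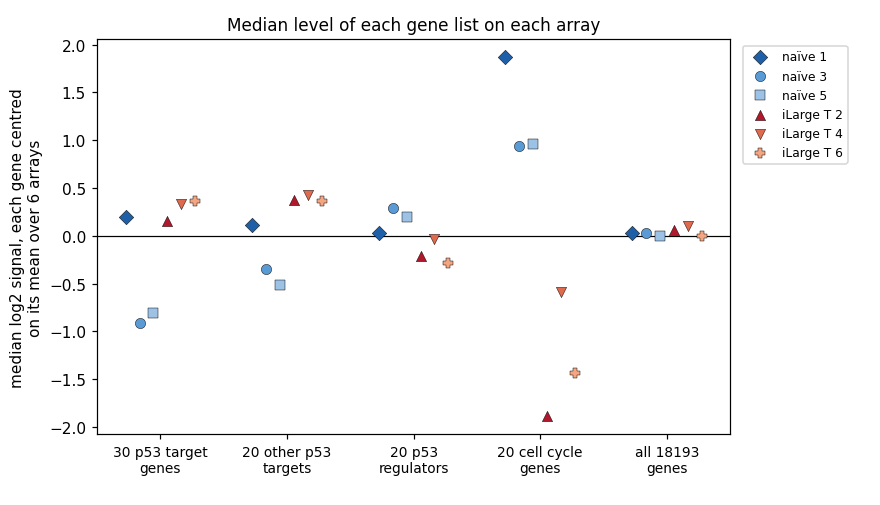
Median log2 signal of the 30 p53 target genes, of 20 other p53 targets, 20 p53 regulators and 20 cell cycle genes, and of all 18193 genes, on each array, after each gene was centred on its mean over 6 arrays. Naïve replicate 1 (dark diamond) lies near the iLarge T arrays for p53 targets, at 0.19, and at the naïve end for cell cycle genes, at 1.87.

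The probe sets of a gene were compared where there were several. Of 16 members with more than 1 probe set, 13 had log2 fold changes of the same sign at all of them, and Apaf1, Mdm2 and Plk2 did not. Ccng1 had log2 fold changes of 1.32 and 1.43 at its other probe sets, and was called at none. Aen had log2 fold changes of 1.55 to 2.07 at its other probe sets, with adjusted p of 0.0750 to 0.193. Mdm2 had a log2 fold change of 1.36 (adjusted p = 0.103) at its second bright probe set, and of -0.75 (adjusted p = 0.834) at one whose signals were 33.9 to 440.2. At the second bright one naïve replicate 1, at 14395, lay just below the lowest iLarge T array, at 14593. Ak1 was called at its bright probe set but not at its dim one, where signals were 105 to 445 and the log2 fold change was 0.32 (adjusted p = 0.914). Counted by probe set, 6 of 54 were called higher and none lower, against 2.47% and 2.27% of all probe sets.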

How the data were processed

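Total RNA was pooled, labelled with biotin and hybridised by the authors to Mouse Genome 430 2.0 arrays, and the deposited values are intensity signals of the MAS5 algorithm, made with GeneChip Operating Software. Log2 was taken before the tests. Of 45101 probe sets, 64 controls were left out. Of the remaining 45037, 34945 are annotated to 1 symbol, 932 to more than 1 and 9160 to none, and 34741 were matched to RefSeq by gene identifier. No detection calls were used, so near background means under the 40th percentile of an array.

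R 4.3.3 and its package limma 3.58.1 (lmFit, then eBayes with trend) were used on all tested probe sets, with Benjamini-Hochberg adjustment over all of them, and were tested on simulated data with known changes. The unpaired t-test of the methods, other scalings, filters and probe sets, and leaving out each array were alternatives. Python 3.11.15, pandas 2.3.3 and matplotlib 3.10.9 made tables and figures. The number of arrays limits the precision, and p-values measure only the spread between these arrays of pooled RNA. The members and lists were chosen with earlier results of these data known. Named in full are called members, members whose groups do not overlap or whose unadjusted p is under 0.05, and Mdm2, Mdm4, Ccng1, Ddit4, Gadd45a, Cdkn1a and Cdkn2a; the other members are named to account for the whole list. Up to 4 called genes of each further list, those with the smallest adjusted p, are named too.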

Additional observations from a re-analysis of the deposited data

How the results depend on the processing

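The count of p53 genes called depended on how the spread was estimated. It was 6 higher and 0 lower by limma with an intensity trend, 1 higher (Pmaip1) without the trend, and 0 by the methods' t-test on log2 or on linear signals. Genes of the other p53 pathway lists called numbered 23 in limma with the trend, 2 without it, and 0 and 1 by these t-tests. All genes called higher and lower numbered 644 and 593 by limma with the trend and 85 and 48 without it. By the t-test they numbered 7 and 7 on log2 and 17 and 36 on linear signals. Both t-test counts are far below those that the paper reports for its t-test. With 1 array left out, p53 genes called higher ranged from 2 to 14, p53 genes called lower from 0 to 3, and genes of the other lists from 13 to 29; the highest counts came without naïve replicate 1. Without both naïve replicate 1 and iLarge T replicate 6 they were 14, 3 and 29. Under the other 8 alternatives, 5 to 9 p53 genes were called higher and 0 lower, the 9 with low signals raised to the background level, where Ccng1, Eda2r and Polk were added. Centring each array on its median moved the median log2 fold change of all genes by -0.19, and raising low signals to the background level moved it by 0.12; relative to all genes the median of the members was 0.73 as reported, and over the alternatives 0.39 (most variable probe set) to 1.18 (without naïve replicate 1). Aen was not called after centring (adjusted p = 0.0696) or quantile normalization (adjusted p = 0.0518), and Ak1 was not called on the mean of its probe sets (adjusted p = 0.117). The log2 fold change of Gadd45a turned to 0.33 and 0.38 when naïve replicate 3 or 5 was left out, and was -2.11 without naïve replicate 1 and iLarge T replicate 6, and that of Mdm2 to -0.75 at its most variable, dim probe set, the positive values of Gadd45a and the value of Mdm2 not being called. The cause was not tested. No paired analysis was possible because the groups share no replicate numbers in the labels, and the order of arrays was not used to pair them.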
